A study of Homo sapiens with 12 samples.

Results

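The expression of 8 genes of the renin-angiotensin and endothelin systems was examined on microarrays of human proximal tubular cells. They were AGT, ACE, AGTR1, ENPEP, MME, EDN1, EDN2 and ECE1, and every non-control probe that carries the name of one of the 8 genes was used, which gave 12 of the 34127 probes and 8 of the 25992 gene names of the array. The study used a pair of immortalized human proximal tubular lines. HK-2 cells carry papillomavirus genes and RPTEC/TERT1 cells carry telomerase. HK-2 cells were grown in a keratinocyte medium with serum and RPTEC/TERT1 cells in a DMEM and Ham's F-12 mixture with insulin and hydrocortisone, and both lines were starved of serum and supplements for 24 h. The cells then received no ligand (control), 10 ng/mL of the pro-inflammatory cytokine IL-1β, or 500 nM empagliflozin (Empa), an inhibitor of the sodium-glucose cotransporter SGLT2, for 24 h. None of the 12 arrays examined here carried cells that had received both ligands. RNA of each line and treatment was hybridized in biological duplicate, which gave 6 groups of 2 arrays and 12 one-color arrays. Each line is a single immortalized line, so that its replicates are cultures and not donors. The duplicates of a label also differed in expression profile, as described below.

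The renin-angiotensin system cleaves angiotensinogen (AGT) in steps, the last by angiotensin-converting enzyme (ACE), into angiotensin II, which acts on the type 1 receptor (AGTR1) and is trimmed by aminopeptidase A (ENPEP). Neprilysin (MME) degrades several small peptides, angiotensins and endothelins among them. Endothelin-1 (EDN1) and endothelin-2 (EDN2) are vasoactive peptides that are cut from their precursors by endothelin-converting enzyme (ECE1) and act on the receptors EDNRA and EDNRB. In the kidney, tubular cells can make angiotensinogen and endothelin-1, and proximal tubular cells carry peptidases of both systems on their brush border.

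The arrays lay on 4 slides, and each slide held the control, IL-1β and Empa array of one line and replicate number (named here HK2 01, HK2 02, RPTEC 01 and RPTEC 02, after the sample titles). The line labels and the expression profiles did not run together. Over 15324 probes, the control array of slide HK2 01 correlated with that of RPTEC 02 with r = 0.984 and that of RPTEC 01 with HK2 02 with r = 0.973, whereas the arrays of equal label correlated with r = 0.880 for HK2 and 0.875 for RPTEC. The same held for the IL-1β arrays (0.984 and 0.982 against 0.869 and 0.865) and for the Empa arrays (0.960 and 0.979 against 0.852 and 0.862). In addition, the source field of all 12 arrays names HK-2. Each treated array was therefore set against the control array of its own slide, a comparison that does not depend on the line label, and values are given for each slide. The array's signal at its 75th percentile was between 295.3 and 735.2 units, and the scanner software marked 52.7% to 63.1% of each array's probes as well above background. Levels are given as log2 of the signal relative to the 75th percentile of the array, so that 0 is the 75th percentile, and the lower limit of the scale is −8.60. Levels of different probes are not comparable with each other. The number of arrays limits the precision. In RNA of a whole culture, fewer cells that express a gene and less RNA per cell cannot be told apart.

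The probes that carry the results on EDN1, EDN2, AGT and ENPEP are shown by the first 30 of their 60 bases, in lower case and from the 5′ end, since they set which stretch of each transcript was measured. Per the array annotation, the probe on which the EDN1 test rests covers chr6:12296672-12296731 (hg19, + strand), and the second EDN1 probe lies before it at chr6:12296218-12296277. The EDN2 probe covers chr1:41944456-41944515 on the − strand, the AGT probe chr1:230838531-230838590 on the − strand, and the ENPEP probe chr4:111484354-111484413 on the + strand.
EDN1, tested probe: aggcgcctggcacatttcagggagaaactc
EDN1, second probe: tcaaatcatcttttcatgatcccaagctga
EDN2: ttattttaatgtattttttagaccctctat
AGT: tgttccaaaaagaattccaaccgaccagct
ENPEP: gaagtctatgtattgtttcaagtaggacat

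Under IL-1β the genes of the endothelin ligands moved in opposite directions. EDN1 rose 2.23-fold and EDN2 fell 10.8-fold over the 4 slides, while neither gene passed the test under Empa. AGT and ENPEP had signal on slides HK2 02 and RPTEC 01 and were not well above background on the others, AGTR1 had no signal above the scale's lower limit on any array, and ACE and the tested probe of MME stayed within narrow ranges on all 12 arrays, while the other MME probes ranged more widely. Of the 8 genes, 5 (EDN1, EDN2, ECE1, ACE and MME) passed the filter on dim probes, which asked for a probe well above background on both arrays of a labelled group. Of these 5, 1 rose and 1 fell under IL-1β and 3 did not pass the test. By limma, 27.9% of all genes had an unadjusted p under 0.05. Among all 15717 genes tested, 12.5% passed under IL-1β, 4.73% upward and 7.76% downward. The median log2 difference of the 5 genes was −0.18, and that of all genes tested was −0.10.

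**Figure D1:**
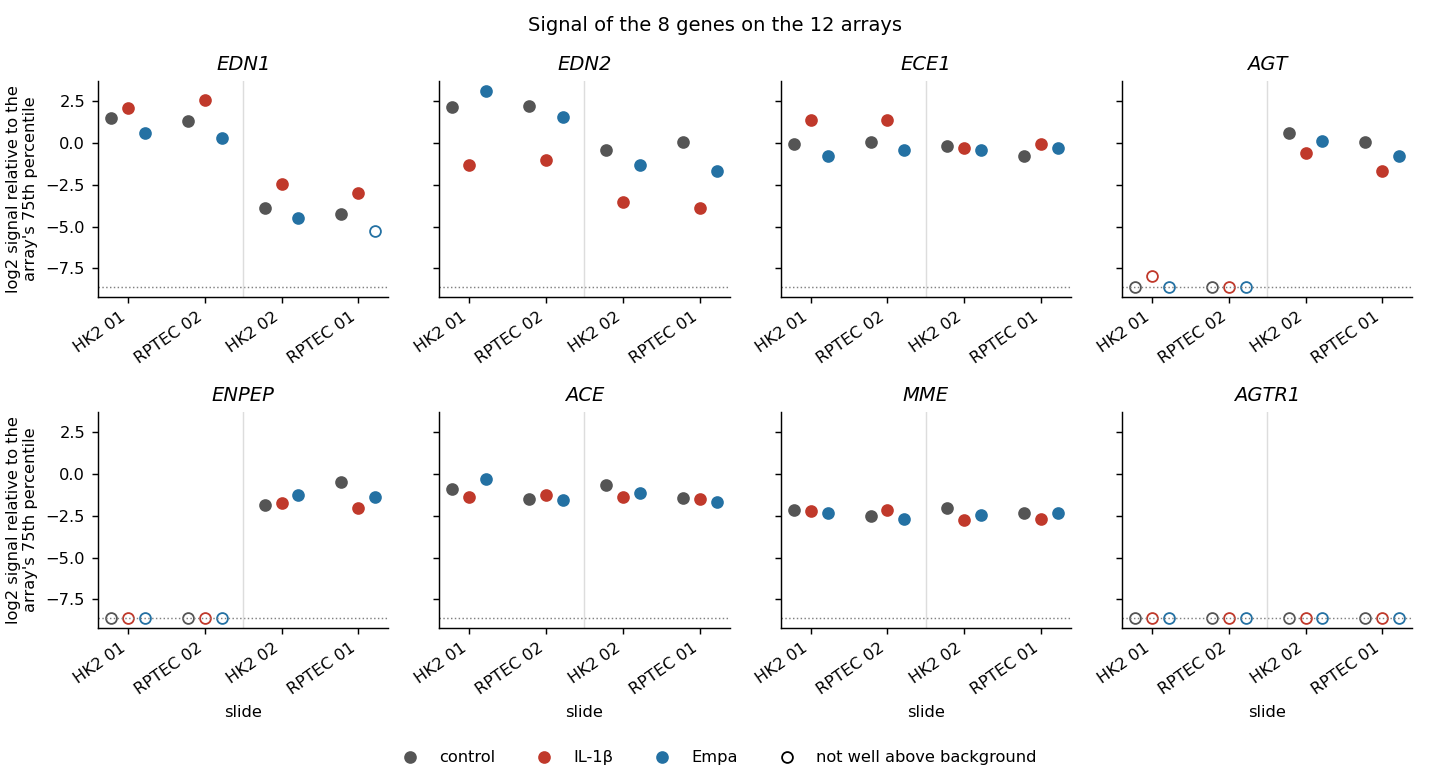
Signal of the 8 genes on the 12 arrays, as log2 relative to the 75th percentile of the array, by slide and treatment. Each point is 1 array, filled where the probe was well above background, and the dotted line is the lower limit of the scale at −8.60. EDN1 was high on slides HK2 01 and RPTEC 02 and low on HK2 02 and RPTEC 01, AGT and ENPEP the reverse, and EDN2 was lowest with IL-1β on all 4 slides.

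EDN1 encodes the precursor of endothelin-1. In the control arrays its level was 1.48 on slide HK2 01, 1.33 on RPTEC 02, −3.92 on HK2 02 and −4.26 on RPTEC 01. The control levels of HK2 01 and RPTEC 02 were thus 45.0 times those of HK2 02 and RPTEC 01 on average, which is a description of slide pairs that the labels do not define. With IL-1β the level was 2.09 on HK2 01, 2.58 on RPTEC 02, −2.43 on HK2 02 and −2.97 on RPTEC 01. It lay above the control array of the same slide on 4 of 4 slides, as did 15.6% of all genes tested. The differences were 0.61, 1.25, 1.48 and 1.28 in that order, and the smallest was that of HK2 01. The effect over the slides was 1.16 ± 0.18 (log2, SE, 4 slides), with an adjusted p of 0.0053 by limma. Without the slide RPTEC 02 the effect was 1.13 and did not pass (adjusted p = 0.0576), and in a fit of HK2 01 and RPTEC 02 alone, added after the values were seen, it was 0.93 ± 0.29 (adjusted p = 0.061). Without the slide as a block the effect could not be separated from the spread between slides (SE 2.27, adjusted p = 1.0), since the distance between slide pairs was several times the difference between treatments. The EDN1 probe is spotted 10 times on each array. Over the spots kept after outliers were dropped, the SD on the log2 scale was 0.24 or less on each array. On all 4 slides the lowest IL-1β spot lay above the highest control spot. Spots of an array repeat the same RNA, so they do not measure the spread between cultures. The study took EDN1 from a set of genes filtered on these arrays by their direction under both treatments. Its sign on the arrays is therefore not independent evidence. The paper also measured the EDN1 transcript by real-time PCR in each line, and the peptide by ELISA in RPTEC/TERT1 supernatants. At 24 h both assays were reported to show induction by the cytokine and a reduced basal amount after the SGLT2 inhibitor. Those measurements were not examined here.

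The second EDN1 probe was well above background on 8 arrays. On HK2 01 it read −0.89 in the control and −0.26 with IL-1β, and on RPTEC 02 it read −0.76 and 0.08. Both differences, 0.63 and 0.84, had the sign of the tested probe. On HK2 02 and RPTEC 01 its control arrays were not well above background, and its difference over the 4 slides was 0.50 ± 0.37, with an adjusted p of 0.425 when every probe was tested. The EDN1 probes therefore differed in whether they passed the test under IL-1β.

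EDN2 encodes the precursor of endothelin-2. Its control level was 2.15 on HK2 01, 2.20 on RPTEC 02, −0.40 on HK2 02 and 0.035 on RPTEC 01. With IL-1β it was −1.35, −1.01, −3.51 and −3.88 on the same slides, and all 12 arrays were well above background. The IL-1β array was the lowest of each slide, and the share of the control signal that was left was 0.0887 on HK2 01, 0.108 on RPTEC 02, 0.116 on HK2 02 and 0.0663 on RPTEC 01. Of all genes tested, 24.1% lay below control on all 4 slides. The effect was −3.43 ± 0.39 (log2, SE, 4 slides; adjusted p = 0.00137 by limma), and it stayed between −3.68 and −3.15 with any single array left out. It was smaller in the authors' table, at −2.32, and after normexp, at −2.39, and passed in both. In the fits of 2 slides it was −3.35 ± 0.45 on HK2 01 and RPTEC 02 and −3.51 ± 0.24 on HK2 02 and RPTEC 01, although the control levels of these pairs differed 5.12-fold.

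ECE1, which releases the active endothelins, did not pass the test over the 4 slides. The control levels of its tested probe were −0.08 on HK2 01, 0.06 on RPTEC 02, −0.16 on HK2 02 and −0.76 on RPTEC 01, and with IL-1β they were 1.36, 1.40, −0.32 and −0.06. The differences were 1.44 and 1.34 on HK2 01 and RPTEC 02 but −0.16 and 0.71 on the others, and the effect over all slides was 0.83 ± 0.35 (adjusted p = 0.152). In the fit of HK2 01 and RPTEC 02 alone, which was chosen after the values were seen and in which 20.7% of the genes tested passed, ECE1 was 2.63-fold higher with IL-1β (adjusted p = 0.00801). In the fit of HK2 02 and RPTEC 01 alone, with 14.5% of the genes passing, its difference was 0.27 ± 0.24 (adjusted p = 0.445). The difference between the pairs was not tested. The second ECE1 probe, at chr1:21560066-21560125, gave 1.00, 1.07, −0.59 and 0.61 on the 4 slides in the same order, and each of its differences had the sign of the tested probe's (0.52 ± 0.37, adjusted p = 0.398).

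**Figure D2:**
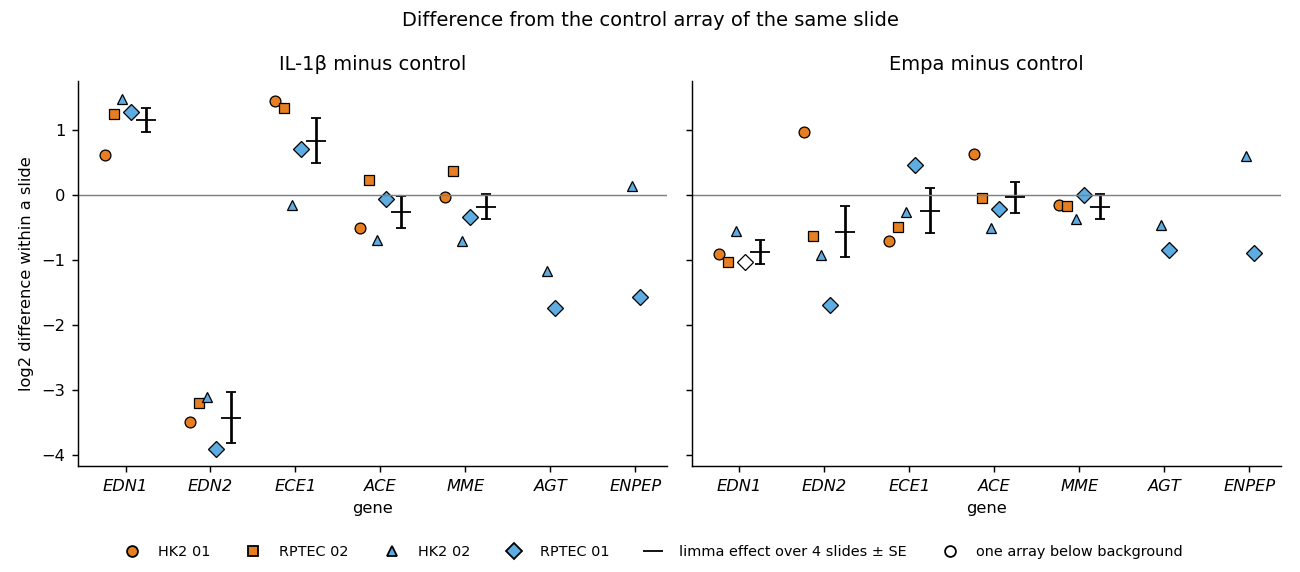
Log2 difference of the IL-1β array (left) and the Empa array (right) from the control array of the same slide. Symbols are slides, open symbols mark differences with one array not well above background, and bars are the limma effect over 4 slides ± SE. The 4 EDN1 points lay above 0 under IL-1β and below 0 under Empa, and the 4 EDN2 points lay between −3.91 and −3.11 under IL-1β.

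AGT, the precursor of all angiotensins, was measured on slides HK2 02 and RPTEC 01 alone. There its control level was 0.59 and 0.06, its level with IL-1β −0.59 and −1.68, and its level with Empa 0.14 and −0.79. On HK2 01 and RPTEC 02 none of the 10 spots of its probe was well above background on any of the 6 arrays. Its control values there lay at the lower limit of the scale, and the control signal of HK2 02 and RPTEC 01 was at least 65-fold higher. That bound sets the measured mean against the lowest signal of any probe marked well above background. Some probes at higher levels were not so marked, so this signal is a convention and not a detection limit. With IL-1β the corresponding bound was 27.8-fold and with Empa 47.7-fold. AGT has 1 probe, whose accession did not match that symbol in RefSeq, so the name rests on the array file. It failed the filter on dim probes because the slides with signal bear different line labels. In the fit of HK2 02 and RPTEC 01 alone, added after the values were seen, it was 2.76-fold lower with IL-1β (log2 −1.46 ± 0.18, adjusted p = 0.0075), with differences of −1.18 and −1.74. Of all genes tested in that fit 14.5% passed under IL-1β, 5.41% upward and 9.11% downward. With all 4 slides in the fit, 5 of the 12 values lay at the lower limit, and the difference was −0.57 ± 0.35 (adjusted p = 0.332) where 2 arrays of a treatment had to be well above background and −0.57 ± 0.37 (adjusted p = 0.453) with no filter.

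ENPEP, which converts angiotensin II to angiotensin III, was likewise measured on HK2 02 and RPTEC 01 and at the lower limit of the scale on all 6 arrays of the other slides. Its control level was −1.85 on HK2 02 and −0.47 on RPTEC 01, by the same bound at least 23.2-fold above the other slides on average. With IL-1β it was −1.71 and −2.04, and with Empa −1.26 and −1.36. The IL-1β differences of 0.14 and −1.57 thus had opposite signs, and in the fit of this pair the effect was −0.71 ± 0.41 (adjusted p = 0.272).

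Some markers of other cell types differed between the slides with and without AGT and ENPEP signal. Of 5 fibroblast markers, DCN and LUM were well above background on all 6 arrays of HK2 02 and RPTEC 01, with control levels of 2.72 and 2.71 for DCN and 1.73 and 1.66 for LUM, whereas LUM was at the lower limit and DCN at −5.16 and −5.09 in the controls of HK2 01 and RPTEC 02. The others did not follow this. COL1A1, a collagen gene, was higher in the controls of HK2 01 and RPTEC 02 (−2.78 and −3.06) than in those of HK2 02 and RPTEC 01 (−4.57 and −4.39), COL1A2 was well above background on no array, and PDGFRA was on 1. The summed control signal of the 5 markers, in units of the 75th percentile, was 9.95 and 9.78 on HK2 02 and RPTEC 01 and 0.192 and 0.162 on the others. On HK2 02 and RPTEC 01 this sum came almost wholly from DCN and LUM. Of the epithelial markers, EPCAM, KRT8 and KRT18 were well above background on all 12 arrays. The adhesion gene CDH1 had the reverse pattern of DCN and LUM, well above background on HK2 01 and RPTEC 02 alone. The part of these differences in the levels of AGT and ENPEP was not tested. On the AGT slides the summed fibroblast signal was 12 and 9.53 with IL-1β and 6.35 and 4.90 with Empa.

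Of 10 proximal tubule markers, 5 were well above background on all 12 arrays, among them SLC5A2, which encodes SGLT2, and LRP2, which encodes megalin. CUBN, SLC22A6 and HNF4A were well above background on none. The summed signal of the 10 markers lay below the control on each slide under both treatments. On HK2 01 it was 4.39 in the control, 2.76 with IL-1β and 3.57 with Empa, and on RPTEC 02 it was 4.57, 3.82 and 3.50. On HK2 02 it was 4.4, 1.92 and 2.52, and on RPTEC 01 it was 2.72, 1.59 and 1.85. Of 5 epithelial markers 4 had a probe, and 3 were well above background on all arrays. The summed signal of the 4 was also lower with IL-1β on each slide, at 57.6 against 84.6 in the control on HK2 01, 65.1 against 87.3 on RPTEC 02, 33.2 against 44.3 on HK2 02 and 30.5 against 38.5 on RPTEC 01. With Empa it was 105 on HK2 01, above the control, and 81.5 on RPTEC 02, 33.7 on HK2 02 and 32.4 on RPTEC 01, below it. The part of these shifts in the differences of EDN2 and AGT was not tested. For the endothelium, from which endothelin-1 is best known, PECAM1, KDR, TEK, TIE1 and CLDN5 were well above background on no array. VWF was on 2 arrays, 1 each of HK2 01 and RPTEC 02, and CDH5 was on all 12. The summed endothelial signal was 0.194 to 0.268 in the controls and 0.172 to 0.303 with IL-1β. None of 5 collecting duct markers was well above background. Of 5 smooth muscle and pericyte markers 1 was on all 12 arrays, with summed control signals of 0.592 to 0.779, and of 5 leukocyte markers 2 were. The summed leukocyte signal was 1.25 in the control and 2.19 with IL-1β on HK2 01, 0.491 and 1.59 on RPTEC 02, 2.71 and 1.91 on HK2 02, and 2.46 and 2.51 on RPTEC 01.

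ACE had signal on each of the 12 arrays, in a narrow range from −1.65 to −0.27. Its control level was −0.89 on HK2 01, −1.48 on RPTEC 02, −0.64 on HK2 02 and −1.43 on RPTEC 01. With IL-1β the level was −1.39, −1.26, −1.34 and −1.50, so that the differences had both signs, and the effect was −0.26 ± 0.24 (adjusted p = 0.529). AGTR1, the receptor through which angiotensin II raises vascular tone, had its probe at the lower limit on all 12 arrays and was not tested. With a single probe, AGTR1 was not detectable on these arrays.

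MME, which had 3 probes, did not pass the test. The tested probe, at chr3:154802056-154802115, had signal on each array and lay between −2.74 and −2.04, with an IL-1β effect of −0.18 ± 0.19 (adjusted p = 0.589). A second probe, at chr3:154900750-154900809, was well above background on 10 arrays. It read −2.94 in the control, −1.97 with IL-1β and −5.06 with Empa on HK2 01, and −4.36 in the control on HK2 02. There the control read 2.19-fold above the IL-1β array, whose signal was not well above background. Its effect over the slides was −0.10 ± 0.61. The third probe was well above background on 5 arrays. The probes disagreed in sign on HK2 01, where the tested probe differed by −0.04 and the others by 0.97 and 0.80, and no direction is given for MME.

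**Figure D3:**
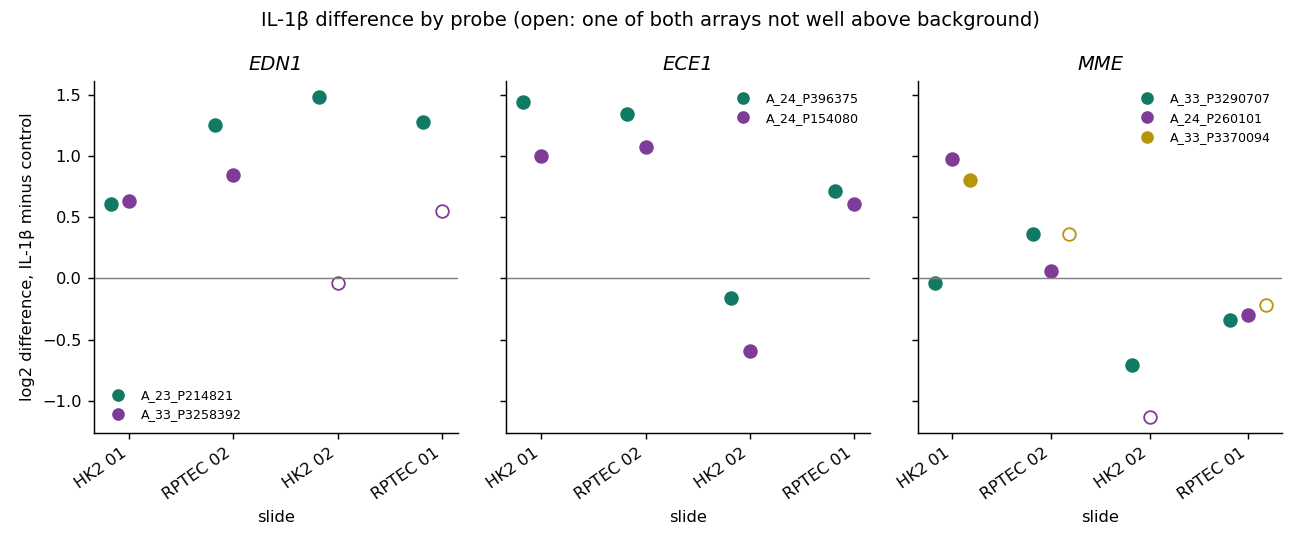
Log2 difference between the IL-1β and the control array of each slide for every probe of EDN1, ECE1 and MME that was well above background on at least one of both arrays. Colors are probes, and open circles mark a difference with one array not well above background. The EDN1 and ECE1 probes shared their sign except for the open EDN1 circle on HK2 02, while the MME probes scattered from −1.13 to 0.97.

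Under Empa none of the 5 genes tested passed, against 0.00636% of all genes, which is 1 gene, DHRS2 (log2 difference 2.73; named after its value was seen). By limma, 12.1% of all genes had an unadjusted p under 0.05. Of all genes, 12.9% lay above control on all 4 slides. EDN1 was among the genes with an unadjusted p under 0.05. Its level with Empa was 0.57 on HK2 01, 0.29 on RPTEC 02, −4.48 on HK2 02 and −5.29 on RPTEC 01. There it was not well above background, and by the bound used for AGT the control was at least 1.92-fold higher. It lay below the control array of the same slide on 4 of 4 slides, as did 13.7% of all genes tested. The differences were −0.91, −1.04, −0.56 and −1.04, and the effect, which takes the last of these at its measured signal, was −0.88 ± 0.18 (unadjusted p = 0.000891, adjusted p = 0.219 by limma). The second EDN1 probe, where it was well above background in the control, read −3.08 with Empa on HK2 01 and −2.22 on RPTEC 02, against control levels of −0.89 and −0.76.

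EDN2 had no common direction under Empa. Its level was 3.12 on HK2 01, above the control, and 1.56 on RPTEC 02, −1.32 on HK2 02 and −1.66 on RPTEC 01, below it. The effect was −0.57 ± 0.39 (adjusted p = 0.558). The differences of ECE1 ran from −0.71 on HK2 01 to 0.46 on RPTEC 01, with an effect of −0.25 ± 0.35 (adjusted p = 0.767). For ACE the effect was −0.04 ± 0.24 and for MME −0.18 ± 0.19, with adjusted p-values of 0.951 and 0.696. The other MME probes differed from the tested one. The second read 4.34-fold lower with Empa than in the control on HK2 01. On RPTEC 02 it read 3.53-fold lower, with an Empa signal not well above background. It was 1.04-fold and 1.34-fold higher on HK2 02 and RPTEC 01, and its effect over the slides did not pass (−0.86 ± 0.61, adjusted p = 0.58). The third read 2.84-fold lower on HK2 01, with an Empa signal not well above background. AGT had differences of −0.46 on HK2 02 and −0.85 on RPTEC 01, and an adjusted p of 0.125 in the fit of that pair, in which 2.69% of genes passed. In the fit of HK2 01 and RPTEC 02 alone 0.00649% of genes passed under Empa.

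The IL-1β arrays were also set directly against the Empa arrays, a contrast that uses no control array. Here 14.5% of all genes passed, 5.27% higher and 9.19% lower with IL-1β. An unadjusted p under 0.05 was found for 31.7%, and 15.2% were higher and 22.3% lower on all 4 slides. EDN1 was 4.12-fold higher with IL-1β than with Empa (2.04 ± 0.18, adjusted p = 0.000487), with the Empa array of RPTEC 01 not well above background, and EDN2 7.26-fold lower (−2.86 ± 0.39, adjusted p = 0.00278). The second EDN1 probe also passed when every probe was tested (1.60 ± 0.37, adjusted p = 0.0234). ECE1 did not pass over the 4 slides (1.08 ± 0.35, adjusted p = 0.0658), nor did ACE (−0.22 ± 0.24) and MME (0.00 ± 0.19). ECE1 passed without the IL-1β array of HK2 02 (1.41, adjusted p = 0.0226) or the Empa array of RPTEC 01 (1.34, adjusted p = 0.0497), and where only probes well above background on all 12 arrays were tested (adjusted p = 0.0474). Fitted on HK2 01 and RPTEC 02 alone, where 4631 of 15411 genes passed, it was 3.97-fold higher with IL-1β than with Empa (adjusted p = 0.00141), and in that of HK2 02 and RPTEC 01, with 12.1% passing, the difference was 0.18 ± 0.24 (adjusted p = 0.678).

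No difference between the lines as labelled passed a test in these genes. For the difference of the IL-1β effect between RPTEC and HK2, 0 of 15717 genes passed by limma, with 1.79% at an unadjusted p under 0.05, and for the Empa effect 0 passed, with 1.03%. For EDN1 the difference was 0.22 ± 0.39 under IL-1β and −0.30 ± 0.39 under Empa, and for EDN2 −0.26 ± 0.77 and −1.20 ± 0.77. The control levels of the labelled lines differed by −0.25 ± 3.20 for EDN1 and 0.24 ± 1.83 for EDN2, and 0 genes passed, with 1.2% at an unadjusted p under 0.05. Each label covers a slide with high and a slide with low EDN1, and these tests do not show that the lines act alike.

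Other genes of both systems were read from lists. Of 19 further renin-angiotensin genes 10 were tested, and 1 of these (10.0%) fell and none rose under IL-1β, against 7.76% lower and 4.73% higher among all genes tested. These shares also stand beside the counts of the lists that follow, which hold few tested genes. The gene that fell was PRCP, a carboxypeptidase that cleaves angiotensin II, with −0.59 ± 0.16 (adjusted p = 0.0447), and against Empa it was 1.99-fold lower (adjusted p = 0.00584). PRCP read 4.60 and 3.78 in the control and IL-1β array of HK2 01, 4.72 and 3.95 on RPTEC 02, 2.84 and 2.61 on HK2 02, and 2.77 and 2.22 on RPTEC 01, lower with IL-1β on each slide. The median IL-1β difference of the 10 genes was −0.04.

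Of 7 further endothelin genes 3 were tested and none passed under IL-1β, with a median difference of 0.26. ECE2, a relative of ECE1, was 1.55-fold higher with IL-1β than with Empa (adjusted p = 0.0444), and its difference from control was 0.47 ± 0.18 (adjusted p = 0.124). EDN3, which encodes endothelin-3, was well above background on 8 arrays and had a difference of −0.18 ± 0.27. The receptor gene EDNRB was well above background on 1 array. Of the probes of EDNRA, one was well above background on 2 arrays of HK2 01. The other was so only on the IL-1β arrays of HK2 01 and RPTEC 02, at −3.47 and −3.90. These lay 3.71-fold above their controls on average, with each control taken at the higher of its signal and the lowest signal so marked. The EDNRA probes thus disagreed, and neither entered the test over 4 slides.

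Genes of neighbouring hormone systems were listed as well. Of 6 kinin genes 2 were tested, and both rose under IL-1β. They were the bradykinin receptor genes BDKRB1 (adjusted p = 0.0097) and BDKRB2 (2.95-fold, adjusted p = 0.0477). The BDKRB1 controls of HK2 02 and RPTEC 01 were not well above background. BDKRB1 met the filter on dim probes only through the IL-1β groups, where it was high, so its entry into the test depended on its rise. On HK2 01 and RPTEC 02, where all arrays had signal, it was 2.47-fold higher (adjusted p = 0.0133). The control of BDKRB2 was not well above background on HK2 02. BDKRB2 went from −4.42 to −1.10 on HK2 02 and from −3.44 to −1.36 on RPTEC 01, but from 1.89 to 2.07 on HK2 01 and from 1.36 to 2.01 on RPTEC 02, and in the fit of HK2 01 and RPTEC 02 alone it did not pass (0.41 ± 0.27, adjusted p = 0.345). Of 7 natriuretic peptide genes 4 were tested and 1 fell, the receptor gene NPR1 (3.15-fold, adjusted p = 0.0193). Fitted on HK2 01 and RPTEC 02 alone NPR1 did not pass (1.86-fold lower, adjusted p = 0.141), and in that of HK2 02 and RPTEC 01 it was 5.35-fold lower. Of 5 aldosterone genes 3 were tested. The kinase gene SGK1, an aldosterone target, rose 4.52-fold (adjusted p = 0.000533), and HSD11B2, whose enzyme inactivates cortisol, fell (adjusted p = 0.0118). Its IL-1β arrays of HK2 01 and RPTEC 02 were not well above background, so no fold over the 4 slides is given. HSD11B2 thus met the filter only through the control and Empa groups, where it was higher, and its entry into the test depended on that difference. On HK2 02 and RPTEC 01, where all arrays had signal, it was 2.34-fold lower (adjusted p = 0.00583). None of the genes of these 5 lists passed under Empa in the test over 4 slides.

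**Figure D4:**
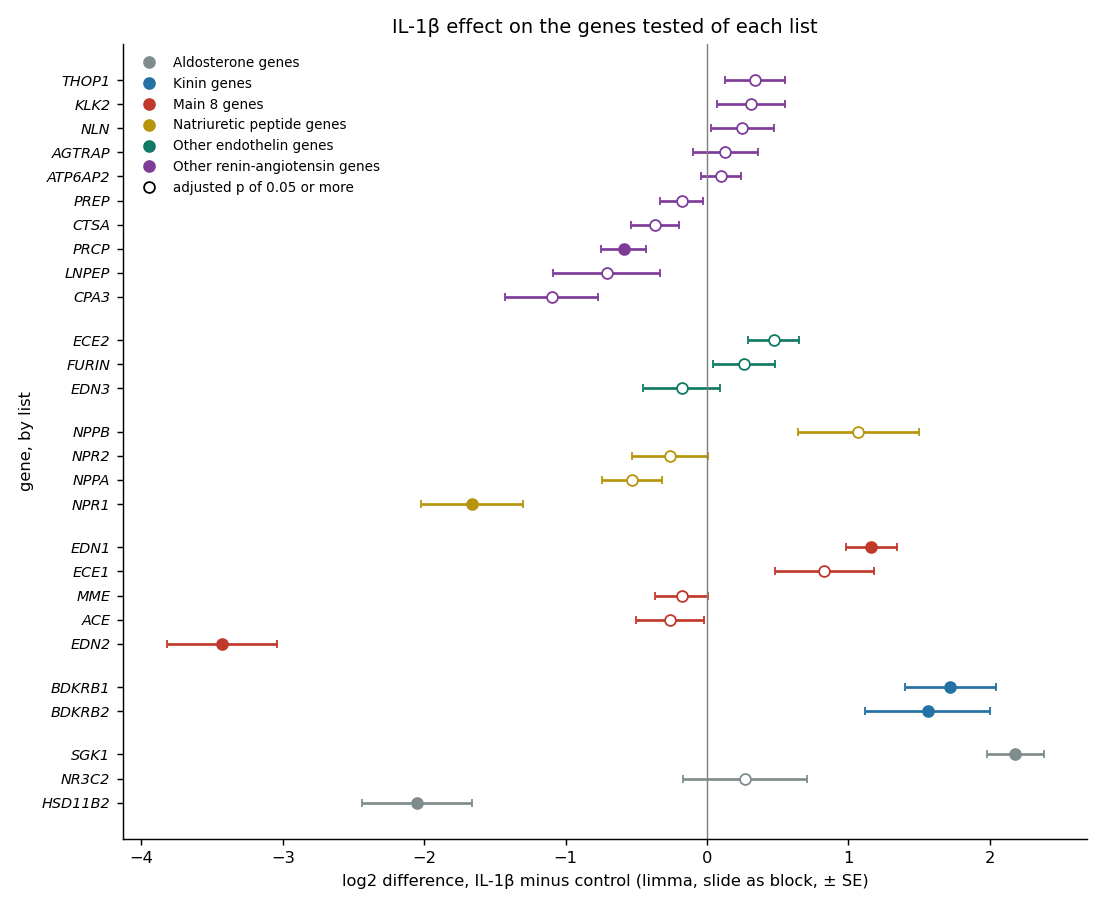
Effect of IL-1β on the tested genes of each list, as the log2 difference from control over 4 slides with the slide as a block, ± SE. Filled circles passed the adjusted p threshold of 0.05. EDN2 had the lowest value of the genes plotted (−3.43) and SGK1 the highest (2.18).

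The patterns most like those of the tested genes were sought over the 12 arrays after subtracting the mean of each slide. These correlations are descriptions over arrays that share slides and treatments, from a search of 15716 genes. EDN1 was followed most closely by NR1H4, HRH1 and ALKBH6 (r = 0.983 each). EDN2 was followed by C17orf97 (0.996), MAL (0.990) and VAV3 (0.988), and 96 genes had r over 0.95 with it. For ECE1 they were PIEZO1 (0.988), PGAM2 (0.985) and NFKBIB (0.983), and 107 genes had r over 0.95. ACE was nearest to KRTAP9-1 (0.992), FRMD1 (0.985) and a probe without a gene name (0.978), and MME to COX6B2 (0.960), ABI3 (0.953) and KIAA1875 (0.949).

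The 250 bases before the transcription start are shown for EDN1 and EDN2, the genes that passed the test under IL-1β in opposite directions. They come from RefSeq (GRCh38.p14) and were searched on both strands for 4 motifs. The AP-1 site was read as TGA and TCA with any base between them, and 6.57% of the 35116 promoters of the table held it. The TATA box, TATAAA, stood in 10.7% of them. The GATA site, AGATAA, stood in 9.17%, and a kappa B site in 9.96%. The table lists 3 starts for EDN1, and the window at chr6:12290111-12290360 (+ strand) is shown because it alone of them held any match. The shares above are per window, while 3 windows were searched for EDN1, so EDN1 and EDN2 are not compared on their matches. It held a TATA match 31 to 26 bases and a GATA match 136 to 131 bases before the start, both in capitals, and the EDN2 window at chr1:41484684-41484933 (− strand) held none of the 4. A match is not a bound site, and the lack of one says only that these letters are not in the window.
EDN1, upstream: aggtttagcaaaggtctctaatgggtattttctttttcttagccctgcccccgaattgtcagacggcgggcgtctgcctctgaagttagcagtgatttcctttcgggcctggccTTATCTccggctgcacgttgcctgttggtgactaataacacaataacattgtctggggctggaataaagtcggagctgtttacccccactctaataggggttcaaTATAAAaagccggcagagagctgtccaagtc
EDN2, upstream: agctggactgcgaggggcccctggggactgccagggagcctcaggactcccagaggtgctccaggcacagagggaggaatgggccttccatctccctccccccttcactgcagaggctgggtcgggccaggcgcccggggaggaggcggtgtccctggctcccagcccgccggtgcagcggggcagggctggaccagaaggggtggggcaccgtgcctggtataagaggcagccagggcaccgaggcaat
The AGT window held a TATA match 30 to 25 bases before its start, and the ENPEP window held TATA matches from 80 to 75 and from 29 to 24 bases. An ACE window held a TATA match from 31 to 26 bases, and windows of ECE1 and MME held kappa B matches.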

How the data were processed

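Total RNA was hybridized to 12 one-color Agilent arrays on 4 slides. The authors read the scans with Feature Extraction 9.5.3.1, and the intensities they deposited are background-subtracted and detrended but not normalized between arrays (array annotation on hg19). A second deposited table holds the authors' log2 values, whose array medians lay between 6.65 and 8.31 and were nearly equal within a slide. How it was centred is not given in the sources used here, and it served as an alternative.

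Control and outlier spots were left out, spots of a probe averaged, and probes lacking a value on any of the 12 arrays dropped (33483 remained). Signals were scaled to the 75th percentile, raised to at least 1 unit at a common level of 388.2 units, and log2-transformed. A probe was well above background where more than 50% of its spots were so marked. One probe per gene, the brightest that was well above background on both arrays of a labelled group, was tested (15717 genes) with limma 3.58.1 in R 4.3.3, with the slide as a block, Benjamini-Hochberg adjustment over all genes and a threshold of 0.05. The slide was the block because the file headers place the 3 arrays of each line and replicate number on 1 slide. Arrays of a slide deviated together from their group means (r between 0.627 and 0.895 over probes), but each labelled group joins slides of unlike profile, so this does not itself show that the numbers pair cultures. The fits were tested on simulated data.

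Named were the 8 genes with every probe, the list genes past the threshold in any contrast over 4 slides, EDNRA, EDNRB and EDN3, and the 3 genes most like each tested gene. Some listed genes are not reported here. The genes and lists were chosen with earlier results of these data known. Accessions of 11 of the 12 probes, all but that of AGT, matched the same symbol in RefSeq. Exon annotation was not used here. Alternatives were quantile normalization, normexp (offset 50) with quantile normalization, the authors' table, other filters, a floor of 5 units, outlier spots kept, no block, and arrays, slides or labelled lines left out. Fits of 2 slides and a filter on 2 arrays of a treatment were added after the data were seen. Figures were drawn with matplotlib.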

Additional observations from a re-analysis of the deposited data

Results flagged for a closer look

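ACE differed in sign between the slides of the labelled lines in the contrast of IL-1β against Empa. On both HK2 slides the IL-1β array read lower than the Empa array and on both RPTEC slides higher, and the mean of the RPTEC slides minus that of the HK2 slides was 0.88 on the log2 scale. The slide values were −1.13 on HK2 01 and −0.19 on HK2 02, and 0.27 on RPTEC 02 and 0.16 on RPTEC 01. The difference between the labelled lines in this contrast was not tested. Its parts were, and neither passed by limma, at 0.68 ± 0.45 under IL-1β and −0.19 ± 0.45 under Empa.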

How the results depend on the processing

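The IL-1β effect on EDN1 ranged from 0.72 to 1.24 and its adjusted p from 0.00454 to 0.0496 over the 8 other ways of normalizing and filtering in which it was tested, and that on EDN2 from −3.44 to −2.32 over 9. With single arrays left out both stayed past the threshold. EDN1 was not past it without the slide RPTEC 02 and in the fit of HK2 01 and RPTEC 02, and neither gene was in the fits of the HK2 or the RPTEC slides alone. The causes were not tested.

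Without the replicate block 7 genes passed under IL-1β, 0 under Empa and 19 for IL-1β against Empa, with 0 of the 8 genes in each. In the HK2 slides alone 34, 3 and 64 genes passed, and in the RPTEC slides alone 0, 0 and 2, again with 0 of the 8. HK2 01 with RPTEC 02 gave 3191 genes under IL-1β and 4631 for IL-1β against Empa, and HK2 02 with RPTEC 01 gave 427 under Empa. With probes well above background on all 12 arrays 1 of the 8 genes passed under IL-1β, since EDN1 was not tested. Under Empa 0 genes passed after normexp, in the authors' table, without a filter, with that filter and with the floor of 5 units. The control level gave 5 genes without a filter. With an array or slide left out, between 445 and 2944 genes and 1 to 2 of the 8 passed under IL-1β, 0 to 1 genes under Empa, and 441 to 2859 for IL-1β against Empa.

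Sign changes occurred only in differences that passed no test. Under IL-1β, ACE was 0.08 and MME 0.01 in the RPTEC slides, and MME 0.16 on HK2 01 with RPTEC 02. Under Empa, EDN2 was 0.03 and ACE 0.06 in the HK2 slides, EDN2 0.16 and ACE 0.28 on HK2 01 with RPTEC 02, and ECE1 0.10 on HK2 02 with RPTEC 01. For IL-1β against Empa, MME was 0.08 with quantile normalization, 0.06 with normexp, 0.04 in the authors' table, 0.10 in the RPTEC slides and 0.33 on HK2 01 with RPTEC 02, and ACE 0.22 in the RPTEC slides. The Empa difference between labelled lines was 0.0 for ACE in the authors' table. With an array or slide left out, ECE1 ranged from −0.51 to 0.01 and ACE from −0.3 to 0.12 under Empa, and ACE from −0.39 to 0.08 and MME from −0.18 to 0.14 for IL-1β against Empa. The differences between labelled lines ranged from −0.13 to 0.57 (EDN1), −0.93 to 0.41 (EDN2), −0.53 to 1.29 (ECE1) and −0.01 to 0.78 (MME) under IL-1β, from −0.61 to 0.0 (EDN1), −0.16 to 1.1 (ECE1), −0.71 to 0.33 (ACE) and −0.09 to 0.45 (MME) under Empa, and from −3.04 to 2.55 (EDN1), −1.03 to 1.52 (EDN2) and −0.64 to 0.18 (ECE1) for the control level. Signal near background limits AGT, ENPEP, AGTR1 and the second EDN1 probe.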

Other observations

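Some genes of the lists passed in fits of 2 slides, which were added after the data were seen, and they are named here after a look at their values. ANPEP, KNG1, NPR3 and KLK1 had signal on 2 slides alone and were not tested over all 4. ANPEP, whose product aminopeptidase N cleaves angiotensin III, was well above background only on HK2 01 and RPTEC 02, the slides on which ENPEP was not. It read −1.18 in the control and 1.07 with IL-1β on HK2 01, and −1.36 and 0.88 on RPTEC 02. In the fit of these slides it was 4.75-fold higher with IL-1β (adjusted p = 0.00318), where 20.7% of all genes passed. On the same slides LNPEP, a related aminopeptidase, was 3.36-fold lower (adjusted p = 0.00489), while on HK2 02 and RPTEC 01 its difference was 0.33 ± 0.14 (adjusted p = 0.17), and over 4 slides it did not pass (adjusted p = 0.256). The difference between the pairs was not tested.

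KNG1, which encodes the kininogens, was 4.13-fold lower with IL-1β on HK2 01 and RPTEC 02 (adjusted p = 0.00292), with 1 of these 6 arrays not well above background, and NPR3, the clearance receptor of natriuretic peptides, 2.57-fold lower (adjusted p = 0.0155). KLK1, which encodes tissue kallikrein, had signal only on HK2 02 and RPTEC 01 and was 2.32-fold lower there with IL-1β (adjusted p = 0.00736). Of all genes 14.5% passed under IL-1β in the fit of these slides. On these slides NR3C2, the mineralocorticoid receptor gene, was 2.05-fold higher with IL-1β (adjusted p = 0.0115) and 2.09-fold lower with Empa (adjusted p = 0.0348). On HK2 01 and RPTEC 02 its IL-1β differences were −0.13 and −0.86, and over 4 slides it passed under neither treatment (IL-1β 0.27 ± 0.44, adjusted p = 0.728, and Empa adjusted p = 0.547). NPPB, which encodes a natriuretic peptide, was 4.38-fold higher with IL-1β on HK2 02 and RPTEC 01 (adjusted p = 0.0097), and did not pass over 4 slides (adjusted p = 0.139). NPR1 was 2.4-fold lower with Empa there (adjusted p = 0.0309), where 2.69% of all genes passed, but not past the threshold over 4 slides (adjusted p = 0.295), and on HK2 01 and RPTEC 02 its Empa differences were −1.87 and −0.58.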
